A study of Rattus norvegicus with 12 samples.

Results

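The comparison described here is deafened against hearing spiral ganglion in rats at postnatal day (P) 32, in the 6 of the series' 12 libraries that were made at that age. The rats were Sprague-Dawley pups, and within a litter some received kanamycin, an aminoglycoside antibiotic that kills cochlear hair cells, intraperitoneally at 400 mg/kg once a day from P8 through P16, and their littermates were left uninjected. Deaf libraries (replicates 1, 2 and 3) came from injected rats and hearing libraries (replicates 1, 2 and 3) from uninjected ones, and the tissue was taken 16 days after the last injection. The whole ganglion was measured after bone, spiral ligament and organ of Corti had been dissected away. The deaf group combines the loss of hair cells with exposure to the drug and with handling, and these cannot be told apart. The series' design text calls the replicates biological, and the labels give neither the number of animals pooled in each nor their sex.

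The spiral ganglion holds the neurons that carry sound from the hair cells to the brainstem, the Schwann cells and satellite glia that wrap them, and resident macrophages, vessels and fibroblasts. Hair cells drive these neurons through glutamate released at ribbon synapses, and they and their supporting cells also supply neurotrophic factors. After hair cells are lost, spiral ganglion neurons of the rat degenerate slowly, over weeks to months, so that P32 is an early age in that course. Complement proteins tag debris and synapses for phagocytes, and interferon-stimulated genes are a shared programme of many cell types that answers interferons and nucleic acid sensors.

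Raw read counts per gene totalled 20503138, 43453272 and 22592618 in deaf replicates 1, 2 and 3 and 26163177, 35630101 and 22863534 in the hearing replicates. Over these totals, 1 CPM (counts per 1000000) stood for 20.5 to 43.5 reads. The CPM given below were also divided by edgeR's TMM scaling factors. These were 0.803 for hearing replicate 3 and 1.011 to 1.035 for the other 5 libraries. Hearing replicate 3 stood apart from the other 5 libraries. Its median correlation with them across genes on log2 CPM was 0.951, against 0.989 to 0.991 for the others, and of 18057 genes it was the highest of the 6 libraries in 7207 and the lowest in 7452. Among the other 5 libraries, deaf replicates had first principal component scores (44.2% of the variance) of 13, 13 and 23.7, and hearing replicates 1 and 2 of -19.9 and -29.8. The table of normalized values has no column for hearing replicate 3. Results are therefore given from a fit of all 12 libraries of the series (the 12-library fit) and from a fit without hearing replicate 3 (the 11-library fit). In both, the P60 libraries contributed to the estimate of the spread, and genes were called at an adjusted p (Benjamini-Hochberg) under 0.05 in edgeR's quasi-likelihood test. Such genes are said to have passed.

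In the ganglion of deafened rats at P32, some genes of complement and phagocytes passed as rises in both fits. Interferon response genes lay mostly above 0 in both fits (medians 0.51 with 12 libraries and 0.75 with 11). Of edgeR's fits, they passed only in the one without hearing replicate 3. Most of the genes of neuronal excitability and transmission that are described below also passed, as falls, in that fit alone. In the 12-library fit, 40 of 17789 genes were higher (0.225%) and 16 were lower (0.0899%) in deaf rats, and 2302 genes had p under 0.05 before adjustment. In the 11-library fit, 279 of 18057 were higher (1.55%) and 362 lower (2.0%). All 56 genes of the first fit were among the 641 of the second, each in the same direction. Other tools called some of these 641 in fits that kept hearing replicate 3: 290 passed by DESeq2, and 638 by limma voom with quality weights, which gave that library a weight of 0.0379. Most changes were small: 77 of the 279 rises and 25 of the 362 falls reached 2-fold in the 11-library fit, and their medians were 0.73 and -0.49 on the log2 scale. Of the 641 genes, hearing replicate 3 lay above the lowest deaf library in 96 of the 279 rises and below the highest deaf library in 193 of the 362 falls. These are the genes whose groups overlapped once that library was counted. Groups without overlap were common over all genes. Of the 17789 tested with 12 libraries, the 3 deaf libraries lay above all 3 hearing libraries in 2019 and below them in 1718. Leaving out a single library moved the counts. Starting from 12 libraries, 11, 5 and 6 genes passed without deaf replicate 1, 2 or 3, and 29 and 20 without hearing replicate 1 or 2. Starting from 11, the count was 30 without hearing replicate 2 as well and 207 to 268 without any other of the P32 libraries.

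**Figure D1:**
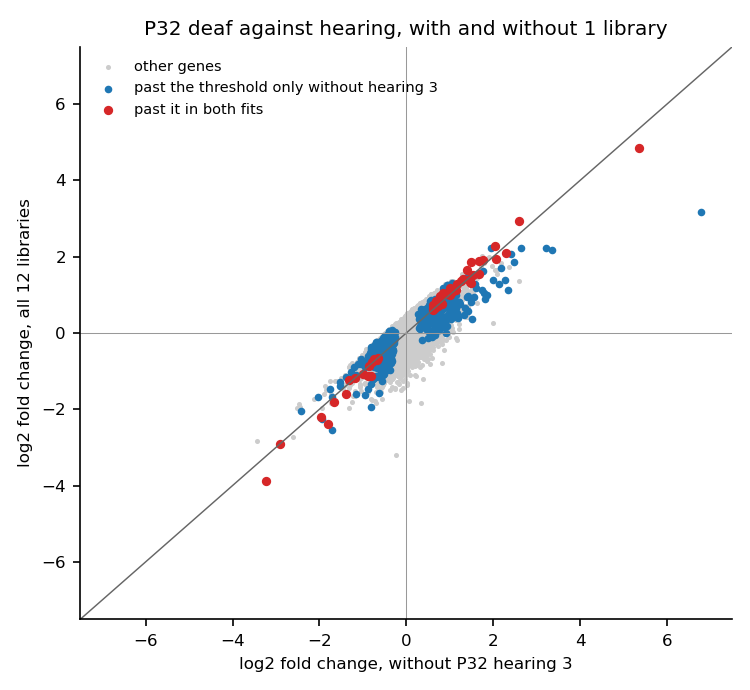
Each point is a gene tested in both fits, with its log2 fold change (deaf against hearing, P32) without hearing replicate 3 on the horizontal axis and with all 12 libraries on the vertical axis, and the diagonal marks equal values. The 56 genes past the threshold in both fits (red) lie along the diagonal, and of the 583 genes past it only without that library (blue) 421 lie nearer 0 on the vertical than on the horizontal axis.

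The genes with the largest rises in both fits included genes of phagocytes, injury and signalling. The largest rises and falls of each fit were chosen among genes whose fitted libraries did not overlap between the groups. For these genes the lack of overlap is therefore no separate result. Gpnmb (ENSRNOG00000008816), a transmembrane glycoprotein of lysosome-rich phagocytes, stood at 9.66, 8.64 and 13.2 CPM in hearing replicates 1, 2 and 3 and at 44.9, 45.4 and 45.1 CPM in deaf replicates 1, 2 and 3, the order of replicates used for all values below. The deaf libraries were nearly equal and all lay above the 3 hearing libraries (edgeR log2 fold change 2.11 ± 0.19 SE, adjusted p = 0.0017; 2.29 ± 0.16 and 6.32e-05 in the 11-library fit). Atf3 (ENSRNOG00000003745), a transcription factor switched on in injured neurons and Schwann cells, was at 3.47, 4.47 and 2.83 CPM in hearing and 14.6, 11.4 and 15.3 CPM in deaf rats, again without overlap (edgeR log2 fold change 1.92 ± 0.21 SE, adjusted p = 0.0037). Rgs9, which shortens G protein signalling, had 2.83, 3.39 and 1.69 CPM in hearing and 15, 12.8 and 11.6 CPM in deaf libraries (edgeR log2 fold change 2.29 ± 0.22 SE, adjusted p = 0.00173). Gpr83, a G protein-coupled receptor of the brain and of regulatory T cells, went from 0.944, 1.22 and 0.327 to 6.37, 6.43 and 7.5 CPM (edgeR log2 fold change 2.92 ± 0.34 SE, adjusted p = 0.00492), and hearing replicate 3 was the lowest library for it. Slc43a3, a purine base transporter, was not among the 12 largest rises but had the third smallest adjusted p of the 11-library fit. It is named here after its values were seen: 15.5, 14.2 and 11.5 CPM in hearing and 34, 33 and 33.6 CPM in deaf rats, with edgeR adjusted p = 0.00204 in the 12-library fit and 0.000102 in the other.

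**Figure D2:**
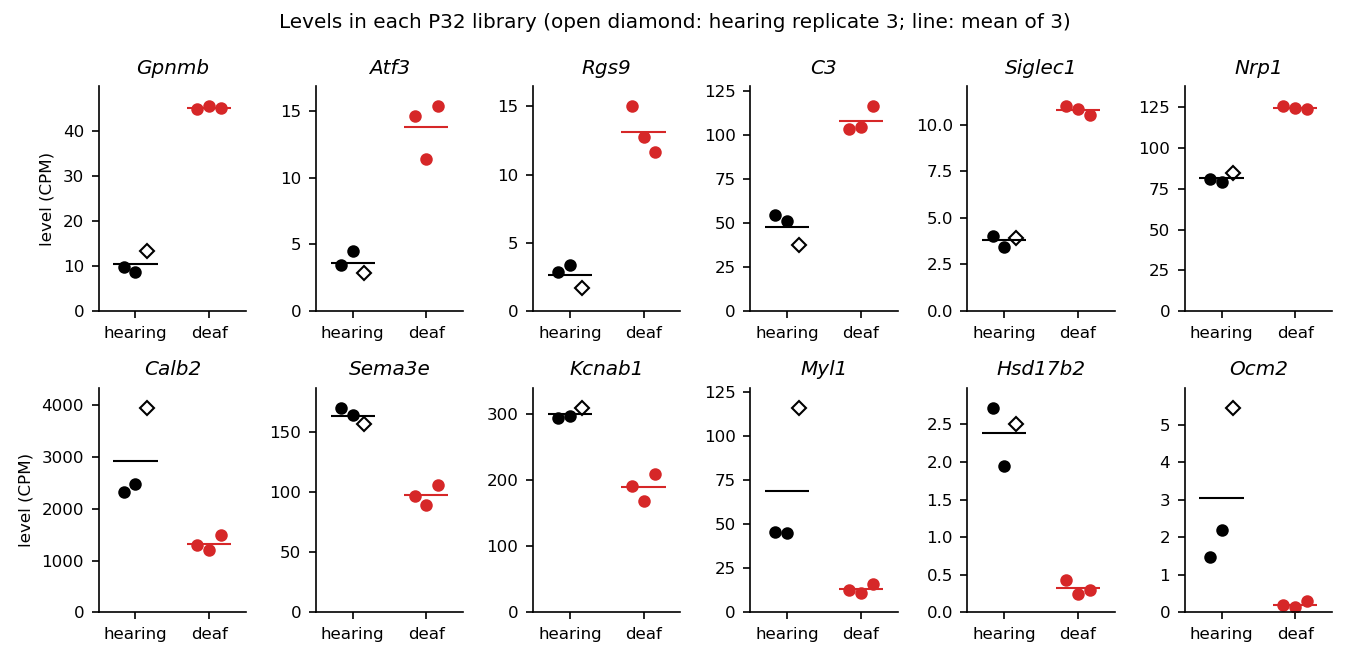
CPM of 12 genes past the threshold in both fits in each P32 library, with hearing libraries in black, deaf libraries in red, hearing replicate 3 as an open diamond and the mean of 3 as a line; each axis starts at 0. For each of these genes the deaf libraries lie on 1 side of all hearing libraries. The choice of the largest rises and falls required this for all but C3, Nrp1 and Kcnab1, which were named as list members by adjusted p. For Calb2, Myl1 and Ocm2 hearing replicate 3 lies far above the other hearing libraries.

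Complement genes rose, from those of recognition to C3. Of 34 tested, 5 were higher and none lower in the 12-library fit (median log2 fold change 0.33, against -0.02 over all genes), and 10 were higher in the 11-library fit (median 0.48, against -0.01). C3, which all routes of the cascade cleave, stood at 54.6, 51 and 37.5 CPM in hearing and 103, 105 and 116 CPM in deaf rats. The groups did not overlap and hearing replicate 3 was the lowest (edgeR log2 fold change 1.18 ± 0.17 SE, adjusted p = 0.0191). C1r encodes a protease of the first complex. It was at 62.7, 62.2 and 73.5 CPM in hearing and 105, 120 and 109 CPM in deaf rats (edgeR log2 fold change 0.75 ± 0.12 SE, adjusted p = 0.0311). Its partner C1s was at 57.4, 51.2 and 104 CPM (hearing) and 108, 108 and 113 CPM (deaf), so that hearing replicate 3 lay near the deaf libraries. C1s passed in the 11-library fit alone (edgeR adjusted p = 0.00668, against 0.339). C1qa, a chain of the recognition molecule made by macrophages, also passed in that fit alone, with 35.3, 30.4 and 45 CPM in hearing and 62, 57 and 63.5 CPM in deaf rats (edgeR adjusted p = 0.107 and 0.00464). C2, which forms the convertase with C4, was at 8.91, 8.69 and 9.21 CPM (hearing) and 19.9, 18.7 and 20.2 CPM (deaf) without overlap (edgeR log2 fold change 1.13 ± 0.17 SE, adjusted p = 0.0218). C4b was at 2.42, 2.0 and 2.89 CPM in hearing and 8.96, 9.98 and 9.01 CPM in deaf rats (edgeR log2 fold change 1.95 ± 0.27 SE, adjusted p = 0.0117), and its reads could be shared with close copies. Of the 9 regulators, 2 lay above 0 in the 12-library fit (median -0.275) and 6 in the 11-library fit (median 0.085). Among them Serping1, the inhibitor of the C1 proteases, rose in both fits, from 87.4, 83.2 and 84.8 to 173, 191 and 176 CPM (edgeR log2 fold change 1.08 ± 0.19 SE, adjusted p = 0.0393). None of the 4 genes of the terminal complex passed in either fit, and 2 of them lay above 0 in each. All 8 receptors lay above 0 in both fits, and the integrin gene Itgam passed in the 11-library fit (edgeR adjusted p = 0.0167, against 0.0894).

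Macrophage genes were higher in deaf rats, and how many passed depended on hearing replicate 3. Of 34 tested, 3 were higher and none lower in the 12-library fit (median 0.35), and 17 in the 11-library fit (median 0.53), where 32 of the 34 lay above 0. The summed level of the list was 759 and 739 CPM in hearing replicates 1 and 2, 997 CPM in hearing replicate 3, and 1008, 1017 and 1017 CPM in the deaf libraries. For this list hearing replicate 3 therefore lay close to the deaf libraries and far from the other hearing libraries. Cd68 encodes a lysosomal membrane protein of macrophages. It was at 3.28, 3.25 and 2.67 CPM in hearing and 6.42, 8.73 and 8.53 CPM in deaf rats, and hearing replicate 3 was the lowest library (edgeR log2 fold change 1.36 ± 0.18 SE, adjusted p = 0.0096). Siglec1 encodes a sialic acid receptor of resident macrophages. It stood at 4.0, 3.44 and 3.92 CPM (hearing) and 11, 10.9 and 10.5 CPM (deaf), with close levels inside each group (edgeR log2 fold change 1.51 ± 0.26 SE, adjusted p = 0.0397). Irf8 encodes a transcription factor that macrophages need. It was at 7.97, 8.41 and 7.25 CPM in hearing and 14.4, 14 and 14.5 CPM in deaf rats (edgeR log2 fold change 0.86 ± 0.15 SE, adjusted p = 0.0347). In contrast, the glucan receptor Clec7a was at 3.59, 4.39 and 14.3 CPM in hearing and 9.62, 10.7 and 12.2 CPM in deaf rats. Its highest value was in hearing replicate 3, and it passed in the 11-library fit (edgeR log2 fold change 1.42 ± 0.18 SE, adjusted p = 0.00179) and not in the other (0.481). Ptprc encodes the phosphatase CD45 of white blood cells. It was at 15.7, 13.1 and 42.4 CPM (hearing) and 26.3, 25.8 and 27.2 CPM (deaf) and followed the same pattern (edgeR adjusted p = 0.00482 and 0.815). So did Adgre1, the F4/80 antigen, at 28, 28.9 and 64.9 CPM in hearing and 45.4, 50.9 and 53.5 CPM in deaf rats (edgeR adjusted p = 0.00639 and 0.577). In bulk tissue, a change in the number of cells of a type and a change in RNA per cell cannot be told apart.

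Among 34 genes of engulfment and the lysosome, 2 rose in the 12-library fit, and 6 rose and 1 fell in the 11-library fit (median 0.19). Lgals3 encodes the lectin galectin-3 that marks damaged lysosomes and activated phagocytes. It was at 10.3, 8.64 and 12.2 CPM in hearing and 29.7, 29.5 and 31.9 CPM in deaf rats, without overlap (edgeR log2 fold change 1.55 ± 0.21 SE, adjusted p = 0.0112). Ctss encodes a lysosomal protease of antigen-presenting cells. It was at 73.6, 67.3 and 180 CPM (hearing) and 114, 108 and 120 CPM (deaf). Lyz2 encodes the lysozyme of myeloid cells. It was at 124, 128 and 465 CPM (hearing) and 216, 251 and 249 CPM (deaf). Hearing replicate 3 was the highest library for both, and both passed in the 11-library fit only (edgeR adjusted p = 0.0157 and 0.0081). Spp1, the secreted matrix protein osteopontin of bone and of activated macrophages, was the fall, at 2053, 2134 and 5104 CPM in hearing and 1474, 1338 and 1386 CPM in deaf rats (edgeR log2 fold change -0.6 ± 0.10 SE, adjusted p = 0.00662 in the 11-library fit). Abca1, which exports cholesterol from cells, was at 347, 361 and 249 CPM in hearing and 606, 617 and 640 CPM in deaf rats (edgeR log2 fold change 0.96 ± 0.15 SE, adjusted p = 0.0265), 1 of 10 lipid export genes to pass in the 12-library fit. None of 25 genes of cholesterol synthesis passed in either fit (medians -0.17 and -0.19), with 1 of the 25 above 0 in the 11-library fit.

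Interferon response genes had the highest median of the lists with 19 or more genes tested, 0.51 in the 12-library fit with 47 of 50 above 0 and 0.75 in the 11-library fit with 49 above 0. None passed in edgeR's 12-library fit, where 24 had p under 0.05 before adjustment, all higher, and 8 passed by DESeq2. In the 11-library fit 17 were higher and none lower: 13 of 38 effectors, 3 of 8 nucleic acid sensors and 1 of 4 transcription factors. Summed over the list, hearing replicates 1 and 2 had 1309 and 1119 CPM, hearing replicate 3 had 1798 CPM and the deaf libraries had 2098, 1902 and 1908 CPM. Mx1 encodes a GTPase that blocks influenza and related viruses. It was at 10.7, 5.53 and 29.1 CPM in hearing and 49.6, 34.6 and 33.4 CPM in deaf rats. Deaf replicate 1 was the highest library, hearing replicate 2 the lowest, and hearing replicate 3 lay just under the deaf libraries (edgeR log2 fold change 2.27 ± 0.51 SE, adjusted p = 0.0305; 1.39 ± 0.59 and 0.364 in the 12-library fit). Oasl, related to the synthetases that make the messenger of RNase L, was at 1.09, 0.5 and 1.53 CPM in hearing and 5.38, 3.84 and 3.32 CPM in deaf rats (edgeR log2 fold change 2.41 ± 0.47 SE, adjusted p = 0.0148 in the 11-library fit). Gbp2 and Gbp5 are guanylate-binding proteins that attack the vacuoles of intracellular microbes. Gbp2 was at 20.6, 18.6 and 38.3 CPM in hearing and 43.4, 45.4 and 47.7 CPM in deaf rats (edgeR log2 fold change 1.21 ± 0.19 SE, adjusted p = 0.00612), and Gbp5 at 7.4, 5.11 and 13.7 CPM in hearing and 18.4, 15.5 and 17.1 CPM in deaf rats (edgeR log2 fold change 1.43 ± 0.29 SE, adjusted p = 0.0167). For both, all 3 deaf libraries were above all 3 hearing libraries. Igtp encodes an immunity-related GTPase. It was at 24.2, 20.4 and 31.4 CPM (hearing) and 46, 38.8 and 40.3 CPM (deaf), also without overlap (edgeR log2 fold change 0.89 ± 0.18 SE, adjusted p = 0.0177). For Ifitm3, a membrane protein that hinders viral entry, hearing replicate 3 was the highest library, with 41.9, 38.6 and 105 CPM in hearing and 64.5, 76.7 and 66.9 CPM in deaf rats (edgeR adjusted p = 0.0102 and 0.79 in the 11- and 12-library fits). Rnf213, a large ubiquitin ligase, showed the reverse: 191, 192 and 84.3 CPM in hearing and 283, 290 and 282 CPM in deaf rats, with hearing replicate 3 the lowest (edgeR log2 fold change 0.56 ± 0.10 SE, adjusted p = 0.00862 in the 11-library fit). Hearing replicate 3 was thus displaced upwards for some genes of the list and downwards for others.

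**Figure D3:**
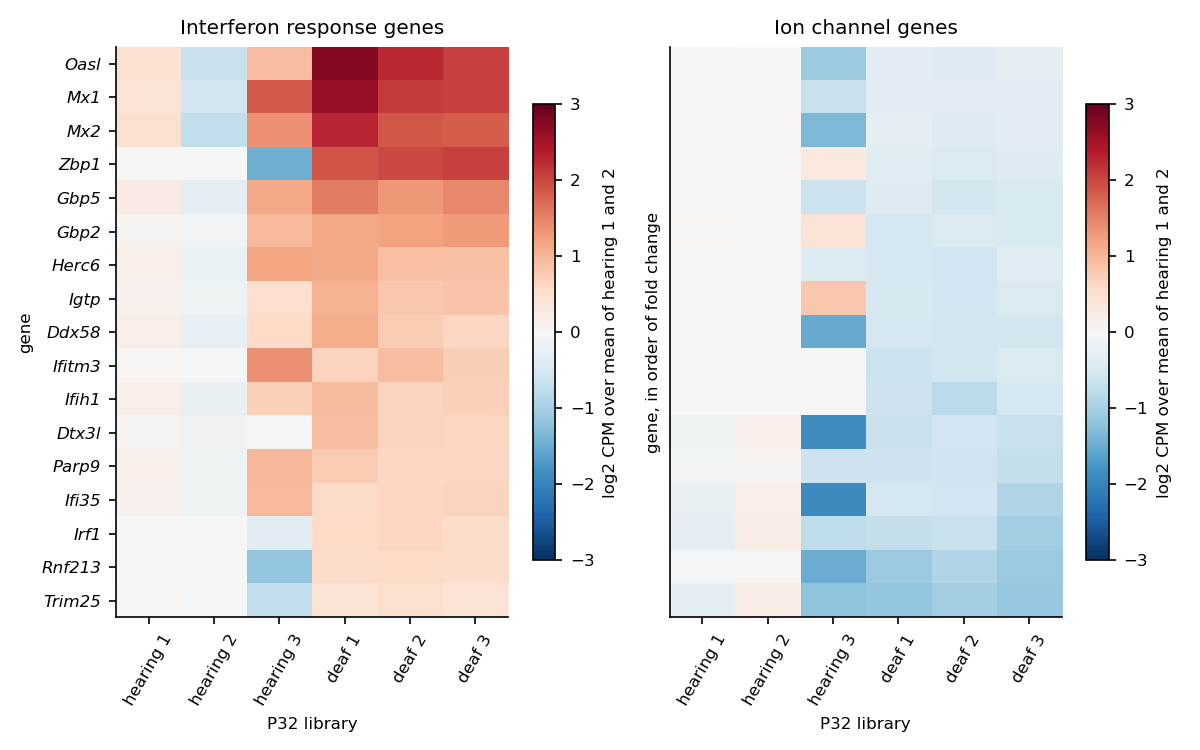
Each row is a gene (channel genes without names, in order of fold change) and each column a P32 library, coloured by log2 CPM relative to the mean of hearing replicates 1 and 2. The 17 interferon response genes higher in the 11-library fit (left) are above that mean in all deaf libraries and the 17 ion channel genes lower in it (right) are below it, while hearing replicate 3 varies in both directions.

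Interferon-stimulated genes are commonly induced through a short promoter element, the ISRE, bound by the STAT and IRF factors. Its core, searched as AAANNGAAA on both strands from 250 bases before to 50 bases after each start (RefSeq, build GRCr8), was in 11.8% of 33469 rat promoters and in 8.13% of the 12813 promoters of measured genes that had an entry. Of the 51 listed genes 39 had an entry, and 26 of these (66.7%) held the core. Among the 17 that rose, 14 had an entry and 6 (42.9%) held it, so the members that rose did not hold it more often than the list as a whole. Of the 279 genes higher in the 11-library fit, 216 had an entry and 44 (20.4%) held it. Of the 362 lower genes, 306 had an entry and 18 (5.88%) did. A match describes letters and not a bound site. The 250 bases before the start, 5′ to 3′ on the gene's strand, are shown for 3 of the risen genes whose groups did not overlap and, as a contrast, for Oasl, whose rise was larger and whose window has no match. Capitals mark the core, which begins 31 bases before the start in Gbp2, 56 in Gbp5 for the first of 2 and 102 in Igtp.
Gbp2 (chr2:234005477-234005726, plus strand): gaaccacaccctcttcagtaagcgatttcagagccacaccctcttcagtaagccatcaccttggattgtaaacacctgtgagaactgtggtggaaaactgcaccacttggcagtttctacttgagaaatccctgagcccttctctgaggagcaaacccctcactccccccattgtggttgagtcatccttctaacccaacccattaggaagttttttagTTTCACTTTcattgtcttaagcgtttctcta
Gbp5 (chr2:233910749-233910998, plus strand): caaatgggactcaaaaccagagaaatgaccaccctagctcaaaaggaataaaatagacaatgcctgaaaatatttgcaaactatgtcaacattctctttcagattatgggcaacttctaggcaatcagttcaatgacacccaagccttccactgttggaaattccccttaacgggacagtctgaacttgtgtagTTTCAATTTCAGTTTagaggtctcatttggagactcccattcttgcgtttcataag
Igtp (chr10:42874797-42875046, plus strand): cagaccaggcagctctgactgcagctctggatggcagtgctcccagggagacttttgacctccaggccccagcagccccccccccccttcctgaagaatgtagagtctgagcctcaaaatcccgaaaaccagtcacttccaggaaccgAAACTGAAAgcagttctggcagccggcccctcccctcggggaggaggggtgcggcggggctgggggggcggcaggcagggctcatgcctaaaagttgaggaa
Oasl (chr12:47356293-47356542, minus strand): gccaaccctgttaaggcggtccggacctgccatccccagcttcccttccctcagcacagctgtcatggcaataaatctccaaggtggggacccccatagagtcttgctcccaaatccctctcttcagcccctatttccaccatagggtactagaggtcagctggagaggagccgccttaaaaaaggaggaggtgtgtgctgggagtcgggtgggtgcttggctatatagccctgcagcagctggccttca

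Cxcl10, the chemokine that interferon induces to draw T cells, was among the largest rises of the 11-library fit. It stood at 0.982, 0.944 and 4.2 CPM in hearing and 10.8, 6.47 and 10.1 CPM in deaf rats, with no overlap although hearing replicate 3 was above the other hearing libraries (edgeR log2 fold change 3.21 ± 0.37 SE, adjusted p = 0.00129; 2.24 ± 0.51 and 0.107 in the 12-library fit). Cxcl11 encodes a ligand of the same receptor. It was at 0.831, 0.722 and 3.16 CPM in hearing and 3.4, 2.34 and 2.63 CPM in deaf rats (edgeR adjusted p = 0.00336 and 0.395), and hearing replicate 3 lay among the deaf libraries. Of 39 chemokine and cytokine genes none passed in edgeR's 12-library fit (7 before adjustment, 2 by DESeq2), and 4 of 40 were higher in the other. In antigen presentation, 0 of 22 passed in edgeR's 12-library fit (8 before adjustment, 1 by DESeq2) and 4 in the other, all higher and all in the class I route. Nlrc5 encodes the factor that turns on class I genes. It was at 3.51, 3.56 and 1.58 CPM (hearing) and 7.03, 7.32 and 7.75 CPM (deaf) with hearing replicate 3 lowest (edgeR adjusted p = 0.0164 and 0.089). The class I light chain B2m was at 244, 250 and 716 CPM (hearing) and 388, 437 and 442 CPM (deaf) with hearing replicate 3 highest (edgeR adjusted p = 0.0287 and 0.934). Cd4, on helper T cells and rat macrophages, rose from 22.8, 22 and 13.1 to 38.1, 39.1 and 44.2 CPM (edgeR adjusted p = 0.0464), the 1 call among 9 genes of T and NK cells. Lilrb4 encodes an inhibitory receptor of myeloid cells. It was at 2.38, 2.17 and 5.29 CPM (hearing) and 10.5, 8.79 and 11.9 CPM (deaf) without overlap (edgeR log2 fold change 2.18 ± 0.24 SE, adjusted p = 0.000993 in the 11-library fit and 0.0514 in the other). The flagellin receptor Tlr5 was at 0.679, 0.583 and 0.273 CPM (hearing) and 1.89, 1.32 and 1.9 CPM (deaf) and passed in both fits (edgeR adjusted p = 0.0464 and 0.0145).

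Besides Atf3, some genes of axon injury and Schwann cell repair had changed. Of 28 axon injury genes 1 rose in the 12-library fit and 4 in the 11-library fit (median 0.23), against 1.55% of all genes, and none fell. Socs3 encodes an inhibitor of cytokine signalling. It was at 2.04, 2.53 and 3.16 CPM in hearing and 4.1, 5.51 and 4.09 CPM in deaf rats (edgeR adjusted p = 0.0131), and Gap43, a growth cone protein, at 7.02, 9.05 and 11.1 CPM (hearing) and 13.4, 12.3 and 10.8 CPM (deaf) with overlap through hearing replicate 3 (edgeR adjusted p = 0.036), both in the 11-library fit. Fos encodes a transcription factor of stimulated cells. It was at 6.83, 6.78 and 4.74 CPM in hearing and 11.8, 13.6 and 12.2 CPM in deaf rats, 1 of 23 early genes past the threshold in the 12-library fit (edgeR log2 fold change 1.03 ± 0.17 SE, adjusted p = 0.0347). Myelin genes did not move as a group: 0 and 1 of 19 passed in the 2 fits. Among 20 genes of repair Schwann cells, 1 was higher in the 12-library fit, and 6 were higher and 1 was lower in the 11-library fit. Btc encodes the growth factor betacellulin. It was at 2.38, 1.97 and 3.27 CPM (hearing) and 6.65, 5.31 and 6.68 CPM (deaf), without overlap (edgeR log2 fold change 1.31 ± 0.20 SE, adjusted p = 0.0218). Pmp2 encodes a fatty acid carrier of myelin. It was at 17.8, 18.4 and 48.8 CPM (hearing) and 58.3, 58.8 and 67.5 CPM (deaf), again without overlap, and passed in the 11-library fit (edgeR adjusted p = 0.00234, against 0.26). The fall was Nrg1, the axonal signal for Schwann cells, at 93.7, 99 and 50.5 CPM (hearing) and 63.5, 62.8 and 64.6 CPM (deaf), with hearing replicate 3 under the deaf libraries (edgeR adjusted p = 0.0028, against 0.42). Fgf5 had 0, 0 and 4 reads in hearing and 10, 20 and 14 reads in deaf libraries, too few in the hearing libraries for a fold (edgeR adjusted p = 0.00636 and 0.166). The gene Ucn2, a peptide of the stress hormone family, had 1, 0 and 1 reads in hearing and 18, 42 and 17 reads in deaf libraries and passed in both fits (edgeR adjusted p = 0.0218 and 0.00681). It falls under the level set for named genes and was picked out after its values were seen.

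Neuronal genes were lower in deaf rats by small amounts, and the calls came with the fit without hearing replicate 3. Of 26 general neuronal genes none passed in edgeR's 12-library fit (median -0.32), where 8 were lower and 1 higher before adjustment and 4 were lower by DESeq2. In the 11-library fit 9 were lower and 1, Gap43, higher (median -0.50). The summed level of this list was 12620 and 14670 CPM in hearing replicates 1 and 2, 8712 CPM in hearing replicate 3, and 9744, 9602 and 9400 CPM in the deaf libraries. Hearing replicate 3 was thus the lowest of the 6 for neuronal RNA as measured by this list. Nefl encodes the light neurofilament. It was at 1890, 2045 and 1302 CPM in hearing and 1325, 1228 and 1223 CPM in deaf rats (edgeR log2 fold change -0.66 ± 0.11 SE, adjusted p = 0.00798), and Ina, the neurofilament-like internexin, at 146, 151 and 53.4 CPM in hearing and 98.6, 100 and 99.9 CPM in deaf rats (edgeR adjusted p = 0.00796). For both, hearing replicate 3 was below the highest deaf library, so the groups overlapped. Snap25, of the vesicle fusion machinery, was at 1123, 1197 and 1496 CPM (hearing) and 798, 792 and 710 CPM (deaf), and for it hearing replicate 3 was the highest library (edgeR log2 fold change -0.61 ± 0.12 SE, adjusted p = 0.0131; -0.73 ± 0.15 and 0.0816 in the 12-library fit). Vamp1, its partner on fast vesicles, was at 973, 1008 and 476 CPM in hearing and 701, 655 and 705 CPM in deaf rats (edgeR adjusted p = 0.00681 and 0.571), with hearing replicate 3 the lowest. With all other libraries in the fit, leaving out hearing replicate 2 moved the list's median to -0.03.

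Among genes that distinguish spiral ganglion neurons, the calretinin gene fell in both fits. Calb2 (ENSRNOG00000016977), which encodes this calcium-binding protein of type I neurons, was at 2313, 2483 and 3939 CPM in hearing and 1297, 1195 and 1485 CPM in deaf rats, without overlap (edgeR log2 fold change -1.14 ± 0.20 SE, adjusted p = 0.0414; -0.87 ± 0.12 and 0.00318 in the 11-library fit). It was the 1 of 33 genes of the list past the threshold in the 12-library fit, and 7 of 34 were lower in the 11-library fit, none higher (median -0.27). The 12-library median of the list was -0.10, and it was 0.00 with library totals and 0.13 without hearing replicate 2. The list's summed level was 5420, 5787 and 7530 CPM in hearing and 3807, 3650 and 4068 CPM in deaf libraries. Calb2 was a large part of this sum in each library. Gene by gene, hearing replicate 3 was the lowest of the 6 libraries for 20 of the 33 and the highest for 7. Prox1 encodes a homeobox factor of these neurons. It was at 108, 117 and 50.5 CPM in hearing and 62.3, 63.9 and 65.4 CPM in deaf rats (edgeR log2 fold change -0.83 ± 0.11 SE, adjusted p = 0.00224). Esrrg encodes an orphan nuclear receptor. It was at 107, 112 and 56.6 CPM in hearing and 67.8, 68.7 and 71.6 CPM in deaf rats (edgeR adjusted p = 0.00318), and for both genes hearing replicate 3 was under the deaf libraries. Slc17a7 encodes the transporter VGLUT1 that loads glutamate into vesicles. It was at 574, 611 and 498 CPM (hearing) and 358, 363 and 400 CPM (deaf) with no overlap (edgeR log2 fold change -0.68 ± 0.11 SE, adjusted p = 0.00756; 0.129 in the 12-library fit). Pvalb encodes the calcium buffer parvalbumin. It was at 576, 587 and 1115 CPM (hearing) and 427, 409 and 461 CPM (deaf) with hearing replicate 3 the highest (edgeR adjusted p = 0.0329). Sema3e, a guidance signal that acts through plexin-D1, fell without overlap in both fits, from 170, 164 and 156 to 96.5, 89 and 106 CPM (edgeR log2 fold change -0.75 ± 0.12 SE, adjusted p = 0.0335). Nrp1, a receptor for class 3 semaphorins and VEGF on axons and vessels, rose from 81.2, 79 and 85 to 126, 125 and 124 CPM (edgeR log2 fold change 0.61 ± 0.11 SE, adjusted p = 0.0397).

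Ion channel genes, which set how fast these neurons fire, were the longest of the neuronal lists. Of 75 tested 1 was lower in the 12-library fit (median -0.17), and 17 of 76 were lower and none higher in the 11-library fit (median -0.34), of which 8 were among 28 voltage-gated potassium channel genes, 3 among 10 sodium channel genes and 3 among 15 calcium channel genes. Kcnab1 encodes a subunit that inactivates potassium channels of the shaker family. It was at 293, 297 and 309 CPM in hearing and 191, 168 and 209 CPM in deaf rats, with close values inside the hearing group (edgeR log2 fold change -0.66 ± 0.12 SE, adjusted p = 0.044). Kcns3, a silent subunit that modifies delayed rectifiers, stood outside the list and was at 28.8, 31.4 and 36.3 CPM in hearing and 15.9, 14.7 and 15.2 CPM in deaf rats (edgeR log2 fold change -1.07 ± 0.13 SE, adjusted p = 0.00692). Kcnc1, the Kv3.1 channel that lets neurons fire fast, was at 60.2, 63 and 21.9 CPM in hearing and 28.4, 33.1 and 28.6 CPM in deaf rats (edgeR log2 fold change -1.05 ± 0.16 SE, adjusted p = 0.00479, against 0.385 with all libraries). Hearing replicate 3 was the lowest library for Kcnc1, as it was for Scn4b, a sodium channel subunit of resurgent current, at 601, 657 and 221 CPM in hearing and 442, 426 and 432 CPM in deaf rats (edgeR adjusted p = 0.00702 and 0.759). Summed over the list, channel transcripts were at 5760 and 6278 CPM in hearing replicates 1 and 2, 3848 CPM in hearing replicate 3, and 4717, 4641 and 4619 CPM in deaf libraries. The median of the list was -0.07 with library totals, and it turned to 0.02 when hearing replicate 2 was left out in place of replicate 3. With both left out it was -0.15.

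Of 50 synaptic genes none passed in edgeR's 12-library fit (13 lower before adjustment, 4 by DESeq2). In the other 9 were lower, 8 of them among 28 presynaptic genes. Syt7 encodes a slow calcium sensor of release. It was at 44.9, 51.9 and 13.8 CPM in hearing and 27.9, 28.4 and 28.9 CPM in deaf rats, with hearing replicate 3 below all other libraries (edgeR log2 fold change -0.78 ± 0.12 SE, adjusted p = 0.00464). Pclo encodes a scaffold of the active zone. It was at 141, 157 and 155 CPM (hearing) and 96.2, 105 and 100 CPM (deaf) without overlap (edgeR log2 fold change -0.58 ± 0.10 SE, adjusted p = 0.00947; 0.0804 in the 12-library fit). Rims1, which ties vesicles to calcium channels, was at 97.8, 97.6 and 141 CPM (hearing) and 72.1, 72.8 and 73.8 CPM (deaf), also without overlap (edgeR adjusted p = 0.0102 and 0.12). Of 64 transmitter receptor genes Gpr83 alone passed in the 12-library fit, and 3 were higher and 3 lower in the 11-library fit. Oprk1, the kappa opioid receptor, rose from 4.38, 4.78 and 6.38 to 10.1, 8.93 and 11 CPM (edgeR adjusted p = 0.0119, against 0.11), without overlap. Of 19 calcium-binding genes 2 were lower in the 12-library fit (median -0.44), and 6 were lower and 1 higher in the other (median -0.20). Besides Calb2, Ocm2 and Pvalb, the falls were Ncs1, a calcium sensor of nerve terminals, at 205, 223 and 110 CPM in hearing and 144, 142 and 144 CPM in deaf rats (edgeR adjusted p = 0.00636), the calmodulin gene Calm3 (-0.41 on the log2 scale, edgeR adjusted p = 0.0123) and Cabp1 (-0.56, edgeR adjusted p = 0.0455). The rise was S100a4, a calcium-binding protein of fibroblasts and leukocytes, at 16.2, 16.1 and 45.9 CPM in hearing and 25.3, 23.4 and 27.2 CPM in deaf rats (edgeR adjusted p = 0.0249, against 0.965).

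Some of the largest falls were in genes at low levels and others in genes well expressed in hearing rats. Ocm2, whose reads could be shared with the outer hair cell gene oncomodulin, was at 1.47, 2.19 and 5.45 CPM in hearing and 0.189, 0.134 and 0.302 CPM in deaf rats, with no overlap and with the highest value in hearing replicate 3 (edgeR log2 fold change -3.89 ± 0.68 SE, adjusted p = 0.0397; -3.24 ± 0.57 and 0.00952 in the 11-library fit). Hsd17b2, which oxidises estradiol and testosterone, was at 2.72, 1.94 and 2.51 CPM (hearing) and 0.424, 0.246 and 0.302 CPM (deaf), and its fall was of nearly equal size in both fits (edgeR log2 fold change -2.92 ± 0.32 and -2.91 ± 0.32 SE, adjusted p = 0.00367 and 0.00102). Myl1 encodes a light chain of fast muscle myosin. It was at 45.5, 44.7 and 116 CPM in hearing and 12.6, 10.7 and 16.2 CPM in deaf rats (edgeR log2 fold change -2.38 ± 0.35 SE, adjusted p = 0.0182; -1.8 ± 0.18 and 0.000748). Ckmt2 encodes a creatine kinase of muscle mitochondria. It was at 3.77, 4.64 and 6.65 CPM in hearing and 1.18, 1.12 and 0.948 CPM in deaf rats (edgeR log2 fold change -2.2 ± 0.28 SE, adjusted p = 0.00768). These were the 2 of 30 skeletal muscle genes past the threshold in the 12-library fit, where the list's median was 0.08. In the 11-library fit 3 of 31 were lower (median -0.01), of which 2 were genes of the sarcomere. The muscle actin Acta1 was at 1.21, 0.972 and 2.29 CPM in hearing and 1.32, 1.03 and 0.474 CPM in deaf rats. Zfp804a encodes a zinc finger protein of neurons. It was at 65.1, 70.5 and 56.5 CPM in hearing and 28.5, 28.3 and 25.4 CPM in deaf rats (edgeR log2 fold change -1.23 ± 0.16 SE, adjusted p = 0.00779). The other named falls of the 12-library fit were Ces1f, Agbl1, Piwil2 and Bhmt, with log2 fold changes of -1.6, -1.18, -1.12 and -0.87 and edgeR adjusted p from 0.0265 to 0.0464. Without hearing replicate 3 the collagen Col6a5 joined them, at 18.4, 21.2 and 7.09 CPM in hearing and 5.24, 4.33 and 5.17 CPM in deaf rats (edgeR log2 fold change -2.04 ± 0.22 SE, adjusted p = 0.000921; 0.0849 in the 12-library fit). So did Colq, the collagen tail of acetylcholinesterase (hearing 6.95, 10.1 and 4.63 CPM, deaf 3.49, 3.26 and 3.19 CPM, edgeR adjusted p = 0.0101), and Tnmd, the tendon protein tenomodulin, whose highest value was in hearing replicate 3 (hearing 6.72, 5.19 and 21.2 CPM, deaf 2.17, 1.45 and 2.02 CPM, edgeR adjusted p = 0.00884). Wnt8b, Prg3 and Mchr1 also fell in that fit, from levels under 4 CPM (-1.75, -1.52 and -1.27 on the log2 scale, edgeR adjusted p = 0.0155, 0.0323 and 0.0199). Among rises at such levels, the hexokinase Hk3 of white blood cells (1.89 ± 0.34 SE, edgeR adjusted p = 0.0459) and Crip3 (1.41 ± 0.22 SE, edgeR adjusted p = 0.026) passed in both fits. Mab21l3 did so at a higher level, with 4.34, 5.97 and 1.69 CPM in hearing and 15, 13.9 and 15.6 CPM in deaf rats (edgeR adjusted p = 0.0347). In the 11-library fit alone, Apoa4, an apolipoprotein, was at 0.0755, 0.139 and 0.654 CPM (hearing) and 0.377, 2.21 and 0.646 CPM (deaf), with overlap and its highest value in deaf replicate 2 (edgeR adjusted p = 0.0319), and Tmprss11f and Ly49si1 had log2 fold changes of 2.65 and 2.13 (edgeR adjusted p = 0.00818 and 0.00179).

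Some matrix genes passed as rises in the 11-library fit alone, with 7 of 45 higher (median 0.18). In edgeR's 12-library fit none passed (median 0.23), with 10 higher and 1 lower before adjustment and 3 higher by DESeq2. Mgp encodes an inhibitor of calcification. It was at 97.4, 103 and 278 CPM in hearing and 186, 211 and 218 CPM in deaf rats (edgeR log2 fold change 1.02 ± 0.10 SE, adjusted p = 0.000624), and Timp1, an inhibitor of matrix proteases, at 16.4, 17.2 and 37.5 CPM in hearing and 34.1, 32.1 and 34.6 CPM in deaf rats (edgeR log2 fold change 0.99 ± 0.13 SE, adjusted p = 0.00179). Hearing replicate 3 was the highest library for both, and with it they did not pass (edgeR adjusted p = 0.562 and 0.399). Mmp2, which cuts type IV collagen, was at 138, 136 and 118 CPM (hearing) and 183, 185 and 192 CPM (deaf) without overlap (edgeR adjusted p = 0.02 and 0.107). Icam1, an adhesion molecule by which leukocytes attach to vessels, rose in both fits, from 17.7, 17.9 and 16.1 to 26.9, 29.5 and 28.3 CPM (edgeR log2 fold change 0.71 ± 0.13 SE, adjusted p = 0.044). None of 19 clock genes, 10 heat shock genes or 14 cartilage genes passed in either fit. Over all genes tested, 1.55% were higher and 2.0% lower in the 11-library fit. The 1 or 2 calls per list that follow therefore do not show that a list moved. Of 32 cell cycle genes 2 were higher in the 11-library fit, among them the cyclin Ccnd1 (hearing 38.5, 40.7 and 24.8 CPM, deaf 66.2, 59.2 and 60.3 CPM, edgeR adjusted p = 0.0125). In that fit 28 of the 32 lay above 0 (median 0.22), and before adjustment 12 were higher and 1 lower. With 12 libraries 18 lay above 0 (median 0.13), and 9 were higher and 0 lower before adjustment. Of 26 growth factor genes none passed in the 12-library fit and 2 of 27 did in the other, both of them binding proteins of insulin-like growth factors, Igfbp2 and Igfbp4 (0.5 and 0.79 on the log2 scale, edgeR adjusted p = 0.0206 and 0.00563). Of 20 neurotrophic factor genes none passed in the 12-library fit and 1, the neurotrophin-3 receptor Ntrk3, was lower in the other (hearing 128, 127 and 89.6 CPM, deaf 104, 105 and 99 CPM, edgeR adjusted p = 0.0425). Of 21 cell death genes 1 was higher and 1 lower in the 11-library fit, the proapoptotic Bcl2l11 (hearing 25, 26.3 and 15.8 CPM, deaf 36.5, 38 and 38 CPM, edgeR adjusted p = 0.00796) and the axon survival enzyme Nmnat2 (hearing 31.6, 37.9 and 11.2 CPM, deaf 26.6, 27.5 and 25.1 CPM, edgeR adjusted p = 0.0292).

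**Figure D4:**
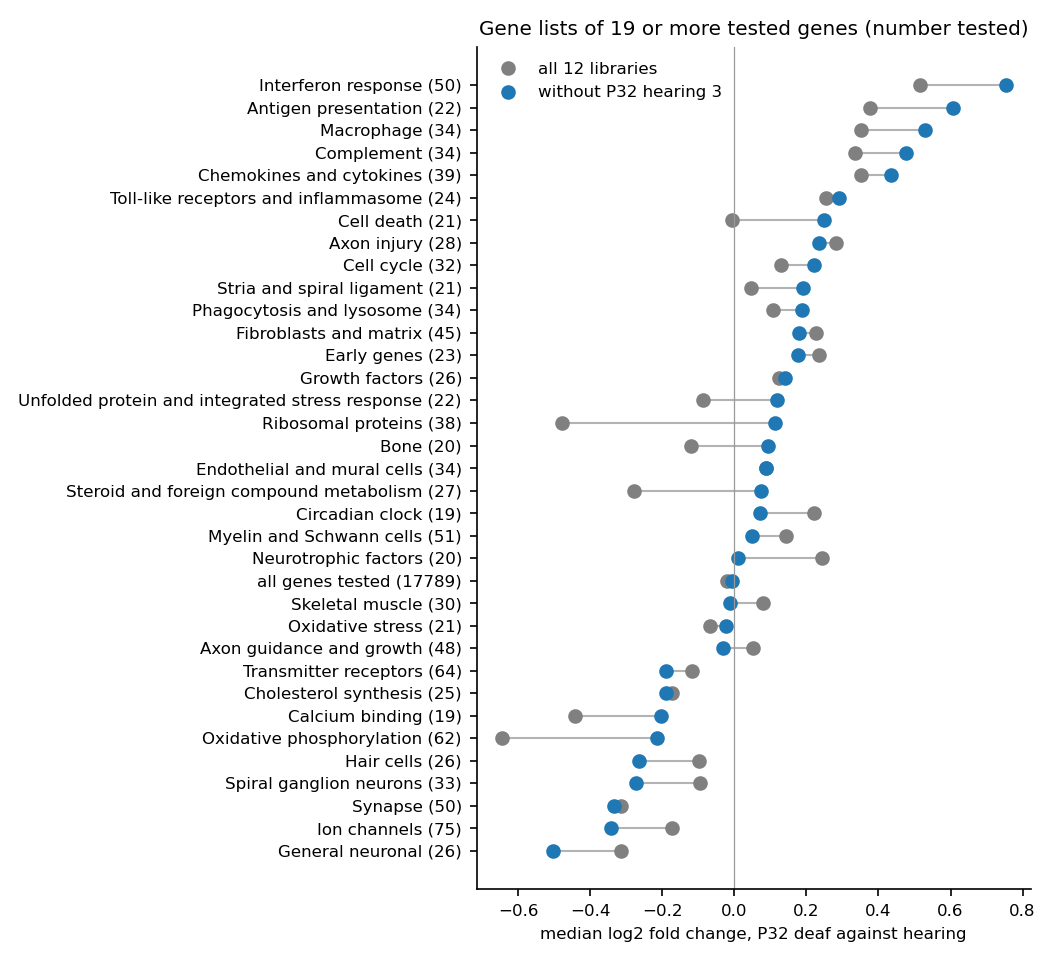
Median log2 fold change (P32 deaf against hearing) of each list with 19 or more tested genes, in the 12-library fit (grey) and without hearing replicate 3 (blue), with the number tested in the 12-library fit in brackets. Immune lists lie highest and neuronal lists lowest in the 11-library fit, and ribosomal protein genes change sign between the fits.

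The fold changes of genes of protein synthesis and respiration depended on hearing replicate 3, and those of oxidative phosphorylation lay mostly below 0 in both fits. The 38 ribosomal protein genes had a median of -0.48 in the 12-library fit and 0.11 in the 11-library fit, where all 38 lay above 0, and hearing replicate 3 was the highest of the 6 libraries for each of them. For the 62 genes of oxidative phosphorylation the medians were -0.65 and -0.21, with 1 of the 62 above 0 in each fit. Before adjustment 28 were lower and 0 higher in the 11-library fit. None passed in edgeR's 12-library fit (46 lower before adjustment, 6 by DESeq2) and 5 were lower in the other, among them Cox4i1, a subunit of cytochrome oxidase, at 370, 390 and 518 CPM in hearing and 305, 296 and 311 CPM in deaf rats (edgeR adjusted p = 0.0211). The 13 transcripts of the mitochondrial genome had medians of -0.59 and -0.07, and none passed. Their summed level was 39350 CPM in hearing replicate 3 and 12600 to 14760 CPM in the other 5 libraries. With library totals in place of scaling factors, the median of all genes was 0.10, against -0.02 with scaling factors, and 53 genes were higher and 12 lower, against 40 and 16.

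Markers of the labelled tissue were abundant. The neuronal neurofilament Nefh ranged from 1074 to 2727 CPM over the 6 libraries. The Schwann cell gene S100b, picked after its values were seen, was at 1188, 1125 and 2826 CPM in hearing and 1242, 1266 and 1273 CPM in deaf rats, with hearing replicate 3 the highest. Of markers of cells removed in the dissection, 26 hair cell genes were tested. In the 12-library fit 1 of them, Ocm2, was lower (median -0.10), and in the 11-library fit Ocm2 and 1 other gene were lower (median -0.27), with none higher in either. The hair cell synapse gene Otof was at 3.89, 2.58 and 3.87 CPM (hearing) and 2.22, 1.5 and 4.35 CPM (deaf), and the hair cell transcription factor gene Pou4f3 at 0.415, 0.5 and 0.218 CPM (hearing) and 0.708, 0.179 and 0.259 CPM (deaf), with overlap. Of 21 genes of the stria and ligament, 1 was higher in the 12-library fit (median 0.05) and 2 in the 11-library fit (median 0.19, 17 above 0). Coch, of this list, was at 3822, 3262 and 5279 CPM in hearing and 4384, 4692 and 5328 CPM in deaf rats. Otos, of the same tissues, was at 235, 155 and 747 CPM (hearing) and 84, 144 and 111 CPM (deaf) and did not pass (edgeR adjusted p = 0.0867 in the 11-library fit and 0.173 in the other). Of 16 genes of supporting and other epithelial cells of the cochlea none passed in either of edgeR's fits, and 15 lay above 0 in each (medians 0.34 and 0.47). Before adjustment 3 were higher in the 12-library fit and 5 in the other, and DESeq2 called 0 with 12 libraries and 1 with 11. Their sum was 983, 866 and 1270 CPM in hearing and 954, 1278 and 1049 CPM in deaf libraries, with overlap. The bone list summed to 3583, 3296 and 7738 CPM in hearing and to 3047, 2922 and 2893 CPM in deaf libraries, and the erythroid list to 1344, 1477 and 3240 CPM and to 1185, 1290 and 1283 CPM. Hearing replicate 3 thus had the highest sum of both lists, and the deaf libraries had somewhat lower sums than hearing replicates 1 and 2. Most of the bone sum in each hearing library was Spp1, which is also a gene of activated macrophages. In the 11-library fit the bone list had a median of 0.09, with 2 genes higher and 1, Spp1, lower. The oligodendrocyte marker Mog was at 109, 87.1 and 165 CPM (hearing) and 114, 96.3 and 100 CPM (deaf), with overlap. The 4 Y-linked genes tested summed to 80.9, 128 and 222 CPM in hearing and 172, 147 and 263 CPM in deaf libraries. These sums overlapped through hearing replicate 3 alone, and hearing replicates 1 and 2 lay below all deaf libraries. None of the 4 passed. Before adjustment 1 was higher and 1 lower in the 12-library fit, and 2 were higher and 1 lower in the 11-library fit. The part of these other cells, and of the makeup of the libraries by sex, in the differences above was not tested.

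The effect at P32 was compared with that in separate rats at P60, 44 days after the last injection, which share no libraries with it. In the 11-library fit 8.84% of genes were higher and 9.55% lower in deaf rats at P60. Of the 641 genes past the threshold at P32, 636 had the same sign at P60, and 585 (91.3%) passed there in the same fit, 1 of them in the opposite direction. They made up 17.6% of the 3321 genes that passed at P60. Of the 279 rises 250 were rises at P60, with medians of 0.73 at P32 and 0.86 at P60. Of the 362 falls 334 were falls at P60, with medians of -0.49 and -0.60. The genes were chosen at P32 in a fit whose spread was also estimated from the P60 libraries, so these counts are not independent of the choice. Of the 12 largest rises of the 12-library fit, 11 passed as rises at P60 in the 11-library fit, Tlr5 being the exception. All 12 of the largest falls of the 12-library fit passed there as falls. With P60 also taken from the 12-library fit, where 578 genes passed at P60, 47 of the 56 genes called at P32 did (83.9%). The test of the difference between the ages passed for none of 17789 genes in the 12-library fit (805 at an unadjusted p under 0.05, and 25 by DESeq2) and for 14 of 18057 in the 11-library fit, 13 of them with a higher value at P60. By edgeR's adjusted p the first 6 were Dclk1, Fabp7, Atf3, Dusp10, Lgals3 and S100a4. Atf3, for example, had log2 fold changes of 3.72 at P60 and 1.76 at P32. Fabp7 encodes a lipid carrier of satellite glia. It was at 50.8, 44.2 and 132 CPM in hearing and 68.8, 63 and 67 CPM in deaf rats at P32 and did not pass (edgeR adjusted p = 0.0553), and at P60 its log2 fold change was 1.59 ± 0.11 SE (edgeR adjusted p = 3.07e-06). Some genes that passed at P32 did not at P60, such as Tlr5 (log2 fold change 0.06 ± 0.26 SE, edgeR adjusted p = 0.908) and Mx2, an interferon-induced GTPase like Mx1 (log2 fold change 2.0 ± 0.49 SE at P32 and 0.93 ± 0.41 SE at P60, edgeR adjusted p = 0.0428 and 0.14). For neither did the test of the difference between the ages pass.

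**Figure D5:**
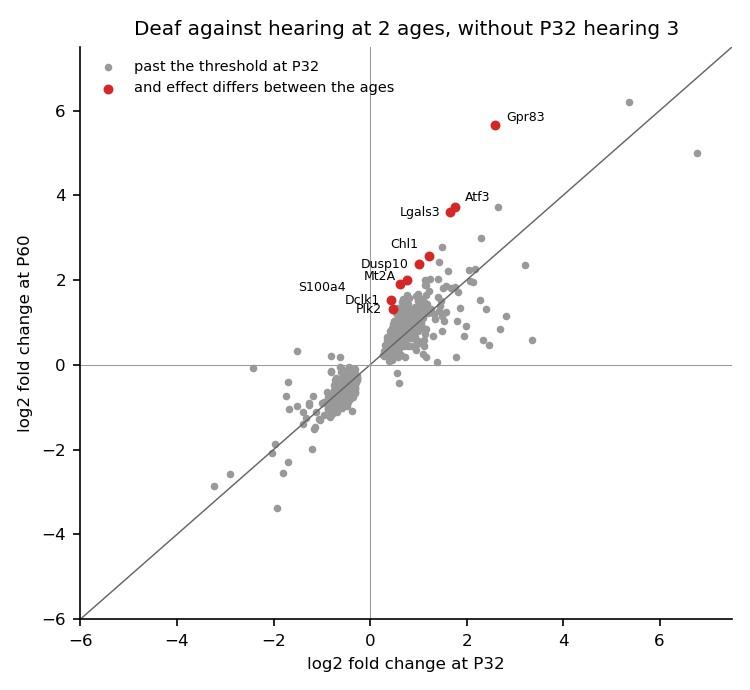
Log2 fold change of deaf against hearing rats at P32 (horizontal) and P60 (vertical) for the 641 genes past the threshold at P32 in the 11-library fit, with the diagonal marking equal effects. Most points share a sign at both ages, and the 9 genes in red, whose effect differed between the ages, lie above the diagonal.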

How the data were processed

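Ribo-Zero depleted RNA from rat spiral ganglia was sequenced as 6 libraries at P32 and 6 at P60, each on 3 lanes. The authors deposited raw read counts per gene for the 12 libraries, and a normalized signal for 11, per the file headers. P32 hearing replicate 3 has no column there. From its values, the second table holds gene counts divided by 1 size factor per library. Its values times that factor were whole within 0.1 read for 100% of values, and the same test on these recovered reads called 641 genes. Tools named in the submitters' processing notes, with no role, are bcl2fastq 2.20, Trimmomatic, STAR 2.7.0b, SAMtools, Subread 1.6.3, featureCounts and DESeq2 1.32.0. Not given in the sources used here were the genome build, the annotation and the use of strand. Therefore reads of overlapping, antisense and near-identical genes could not be told apart. Symbols came from pairing the 2 tables, and gene IDs without a symbol held 0.00632% of reads.

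Raw counts were tested with edgeR 4.0.16 (R 4.3.3), with TMM scaling, edgeR's default filter on low counts, 4 group means and the quasi-likelihood test, with Benjamini-Hochberg adjustment over all genes tested and a threshold of 0.05. CPM were taken over library totals multiplied by their TMM factors. Fold changes carry their standard error (SE). Only the P32 test, in both fits, was tried on simulated counts with known changes. There hearing replicate 3 shared the gene profile of the other libraries, so its standing apart was not covered. limma 3.58.1, DESeq2 1.42.0, other scalings, filters and left-out libraries were alternatives. Replicates differed from each other by more than counting noise. P-values measure the spread between these samples, and the number of animals behind each is not given. The named genes were the 12 largest rises and falls of each fit at 1 CPM or more without overlap of the libraries fitted, up to 6 members of each list with the smallest adjusted p, the marker genes, and the 6 leading differences from P60; not all of them are described, and some are not reported here. Members, lists and rule were chosen with earlier results of these data known.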

Additional observations from a re-analysis of the deposited data

Results flagged for a closer look

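For 14 genes the effect of deafening differed between P60 and P32 in edgeR's test of the difference itself, run without P32 hearing replicate 3. With all 12 libraries none did. The values below are differences of log2 fold changes, P60 minus P32. The differences were 1.1 for Dclk1, a kinase of neuronal microtubules, 1.12 for Fabp7, 1.96 for Atf3, 1.37 for Dusp10, a phosphatase of stress kinases, 1.95 for Lgals3, 1.27 for S100a4 and 0.858 for Plk2. They were 3.05 for Gpr83, 1.35 for the adhesion molecule Chl1, 1.23 for the metallothionein Mt2A, 1.5 for Glipr2 and 0.911 for Gfap, the glial filament. For these 12 genes the fold change was above 0 at both ages and larger at P60. Grm5, a metabotropic glutamate receptor, differed by 3.06, with log2 fold changes of -0.17 at P32 and 2.88 at P60. The proteoglycan gene Acan differed by -1.04, with 0.32 at P32 and -0.71 at P60. Adjusted p-values of the differences ran from 0.0169 to 0.0475. At P32 alone Grm5, Acan, Fabp7, Glipr2 and Gfap did not pass, with adjusted p of 0.882, 0.0927, 0.0553, 0.118 and 0.12. None of the 14 differences passed when any other P32 library was left out as well.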

How the results depend on the processing

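The count of genes past the threshold at P32, 56 with all 12 libraries, stayed within 1.5 times under other scalings and filters, and ranged from 5 to 641 when 1 library was left out. It was 452 by DESeq2, 2144 by limma voom with quality weights (which gave hearing replicate 3 a weight of 0.0379), 499 (pseudocount 1) and 498 (pseudocount 5) on the normalized table, and 0 with the P32 libraries alone (1114 at an unadjusted p under 0.05). Alternatives chosen after seeing the data, all without hearing replicate 3, gave 641 on recovered reads, 1062 by DESeq2, 2316 with the P32 libraries alone, and 268, 207, 224, 223 and 30 when deaf replicate 1, 2 or 3 or hearing replicate 1 or 2 was also left out. With a replicate block the counts were 13, and 192 without hearing replicate 3. Deviations from the group means correlated across genes by -0.0319, 0.0733 and 0.128 in same-numbered libraries and by -0.127 to 0.138 in the others. The hearing means included hearing replicate 3, which stood apart, so these correlations cannot decide whether replicate numbers pair the samples. For the difference between ages, 0 with 12 libraries, left-out libraries gave 0 to 14 (14 without P32 hearing replicate 3, 2 without P60 deaf replicate 1), no filter 2, DESeq2 25, quality weights 38, normalized values 12 with either pseudocount, and the replicate block 1. Without P32 hearing replicate 3 it was 70 by DESeq2, 1 with the replicate block and 14 on recovered reads. Of 24 named genes called with 12 libraries, 613 of 816 values under alternatives kept the call, 203 lost it and 0 reversed. These genes were chosen for groups without overlap, so reversals were unlikely from the start and their absence is no sign of stability. The cause of the shifts in the counts was not tested. At 1 CPM over unscaled library totals, 20.5 to 43.5 reads stand behind a value, which limits the precision of genes near that level.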
